A study of Danio rerio with 5 samples.

Results

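Basal cells of the adult zebrafish caudal fin were compared with basal precursors of the embryonic skin at 1 day post fertilization (dpf). The members of the comparison were chosen by label: 1 library of adult itgb4+ cells against 2 libraries of embryonic itgb4+ cells, 3 of the 5 libraries of the series. Both populations came from fish carrying Tg(itgb4:mcherry), in which mCherry is placed under itgb4 control, and were sorted by fluorescence. The other 2 libraries held krt4+ periderm cells of 1 dpf embryos carrying 3 transgene cassettes, krt4:creERt2, Olactb:loxP-dsRed2-loxP-egfp and cryaa:egfp. They entered the fit for its estimate of spread, and their levels are given where they help to read a gene. The fish were of a wild-type strain of Tübingen origin that had been inbred for years, and the labels give no age for the adults and no treatment. The study asked whether basal precursors carry a basal identity as soon as the layers of the skin separate, and the adult library served as the reference for that identity.

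The adult side had a single library, so no spread between adult samples could be measured. In the test the adult library was assumed to vary like the embryonic ones, and every adjusted p below rests on that assumption. Age and body site changed together between the groups and cannot be told apart. It is not stated in the labels if the embryonic replicates are different clutches, and the p-values therefore reflect the scatter among these particular libraries alone, part of which may be technical. Because the itgb4 reporter chose the cells of both groups, the itgb4 level is no independent check of identity.

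The skin of a zebrafish embryo consists of an outer periderm and an inner basal layer, while adult fin epidermis is stratified, with basal cells under intermediate and superficial layers. Basal cells hold the basement membrane through hemidesmosomes, in which an integrin encoded by itga6 and itgb4 genes and the collagen XVII proteins span the membrane and plakins such as dystonin tie them to keratin filaments. In the adult, the basal layer is the source of new epidermal cells, and after fin amputation it signals to the tissue below.

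Levels are given as CPM, which are read counts scaled to a common library total with TMM factors, with embryonic basal replicate 1 before replicate 2. A fold change is adult over embryonic basal cells, and a gene was called when edgeR's quasi-likelihood test gave a Benjamini-Hochberg adjusted p under 0.05 over all 18144 genes tested. The kept genes held 5521667 and 4903843 counts in the embryonic basal libraries and 3521594 in the adult library, so that 3 counts corresponded to 0.567, 0.514 and 1.38 CPM. In all, 4182 genes were called (23%), of which 2108 were higher (11.6%) and 2074 lower (11.4%) in the adult library. The adult value lay above both embryonic basal libraries in 35.3% of tested genes and below both in 50.3%. No called gene had an adult value between the embryonic basal values, so such statements on called genes below add no separate check. The smallest change called was 1.40 on the log2 scale, and the median absolute change of called genes was 4.07. The median log2 fold change of all tested genes was -0.59, and -0.14 when the genes at 0 counts in a group were placed at the bound set by 3 counts, since 21% of tested genes had no count in the adult library. Scaling by library totals alone moved the median by -0.78 and turned the calls to 1507 higher and 3889 lower (27.9% higher against 50.4%). Directions of gene groups below are those under TMM, and groups whose median changed sign under another scaling are named as such. Counts of list members called are to be read against the shares of 11.6% higher and 11.4% lower over all tested genes.

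**Figure D1:**
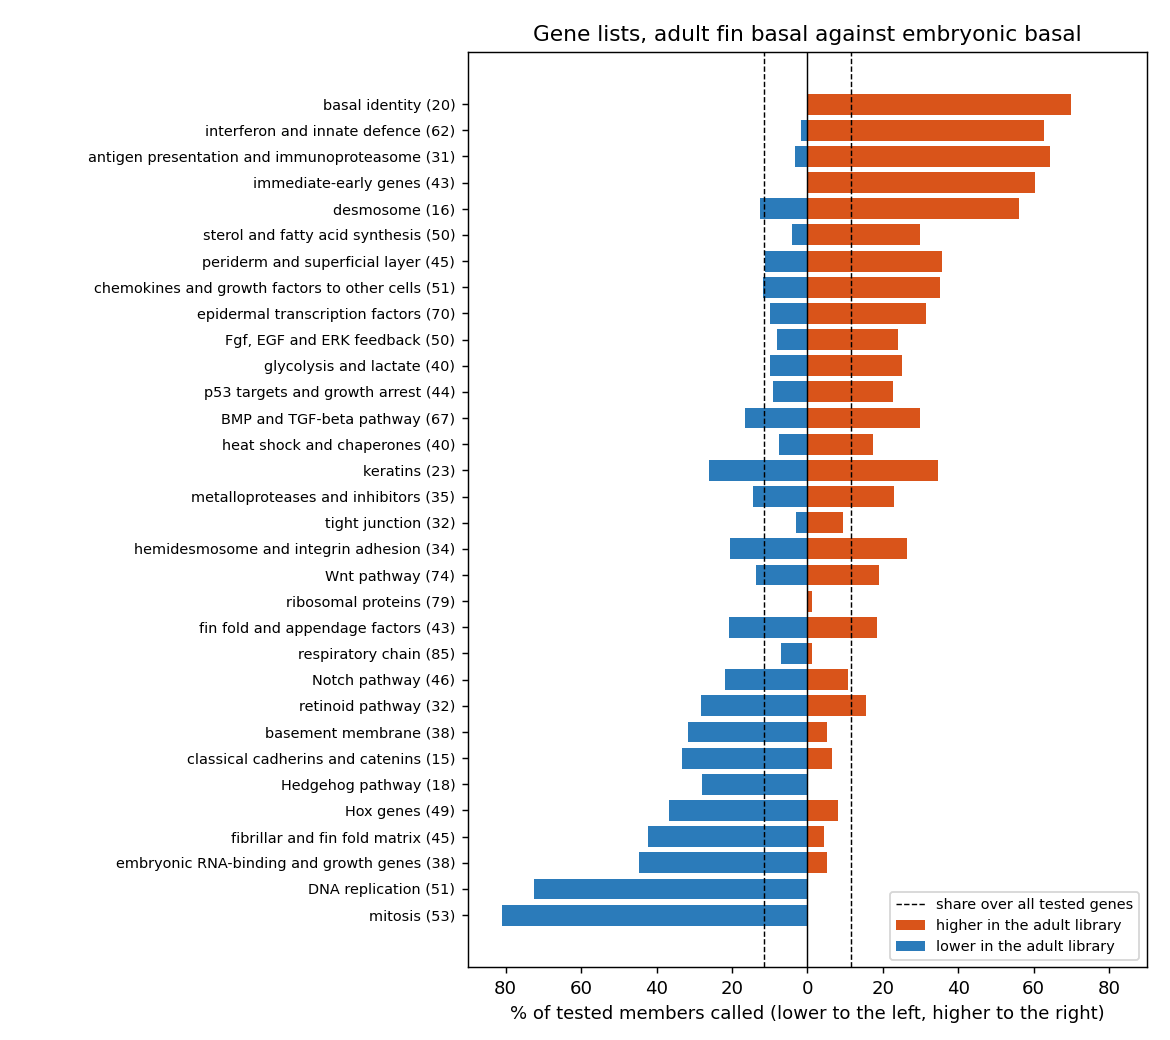
Share of the tested members of each gene list with at least 10 tested members, marker lists of other cell types left out, that were called higher (orange, to the right) or lower (blue, to the left) in the adult library, in percent, with the number of tested members in brackets and dashed lines at the shares over all tested genes. Basal identity, antigen presentation, interferon and immediate-early genes had the widest bars to the right among the lists drawn, and mitosis and DNA replication genes those to the left.

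The embryonic basal libraries also held transcripts of other tissues. Skeletal muscle genes took 2.77% and 6.91% of gene counts in embryonic basal replicates 1 and 2 and 0.000852% in the adult library. The muscle actin gene actc1b measured 9975 and 20349 CPM in the embryonic basal libraries, 10034 and 22686 CPM in periderm and 0.459 CPM in the adult library, where it had a single count. Of the 36 tested muscle genes 33 were called lower and 27 had no adult count, so muscle RNA was close to absent on the adult side.

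Mesenchyme markers summed to 2834 and 2538 CPM in the embryonic basal libraries and 179 CPM in the adult library, and 15 of 24 tested members were lower. fmoda, which encodes the collagen-binding fibromodulin, measured 397 and 366 CPM in the embryonic libraries and 0 in the adult (at least 277-fold lower, adjusted p = 0.00203). The PDGF receptor gene pdgfra, a fibroblast marker, was also at 0 in the adult library against 47.6 and 59.6 CPM. Neuronal markers summed to 620.3 and 955 CPM in the embryonic basal libraries and 200.1 CPM in the adult library, with 15 of 30 lower, among them elavl3, which encodes a neuronal RNA-binding protein (119 and 154 CPM, 0 in the adult). Vessel markers summed to 194 and 283 CPM in the embryonic basal libraries and 9.64 CPM in the adult library; 11 of 19 were lower, and 7 without embryonic basal replicate 2. Red blood cell genes summed to 134 and 261 CPM in the embryonic basal libraries and 187 CPM in the adult library. As shares of gene counts they took 0.0128% and 0.0311% against 0.0116%, so the place of the adult sum depended on the scaling. Of 23 tested members 3 were higher (13%) and 6 lower (26.1%). The embryonic globin genes hbbe1.1 and hbbe1.3 were at 0 in the adult library, while ba1 was higher there and kept its call in 14 of 15 alternatives.

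On the adult side, leukocyte markers stood out. They summed to 20.8 and 25.5 CPM in the embryonic basal libraries and 630.2 CPM in the adult library, and to 183.2 and 304 CPM in periderm. Of the 24 tested members 16 were higher (10 without embryonic basal replicate 1), and 13 of the 28 listed genes had no count in either embryonic basal library. The pan-leukocyte phosphatase gene ptprc measured 20.2 CPM against 0 in both (at least 37.4-fold higher, adjusted p = 0.00648), and the chemokine receptor gene ccr9a 71.6 CPM against 0 (at least 132-fold higher; not called by DESeq2, adjusted p = 0.128). A large share of the adult sum was grna, a granulin gene that is not confined to leukocytes, at 284 CPM against 1.70 and 0.514 CPM. The neutrophil lysozyme gene lyz and rag1 were at 0 in the adult library. Osteoblast markers summed to 52.3 and 110 CPM in the embryonic basal libraries, 81.4 and 136 CPM in periderm and 162 CPM in the adult library. As shares of gene counts they took 0.00502% and 0.0131% in the embryonic basal libraries and 0.01% in the adult library. By share the adult sum thus lay between the embryonic basal ones, and its place on top depended on the scaling. Of the 16 listed genes 6 had no adult count, and 1 tested member, phex, was lower. Among osteoblast markers 6 of 9 were higher (3 without embryonic basal replicate 1), including the bone transcription factor genes runx2a (24.3 CPM against 0.189 and 0.514 CPM) and runx2b (24.3 CPM against 0.378 and 0.514 CPM). In sorted bulk RNA, fewer cells of a type and less RNA per cell cannot be told apart. How far these cells contributed to genes outside their own lists was not tested. Leaving the marker genes out of the fit gave 4043 calls. That fit kept the reads of these cells in all other genes, so it cannot measure their contribution.

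**Figure D2:**
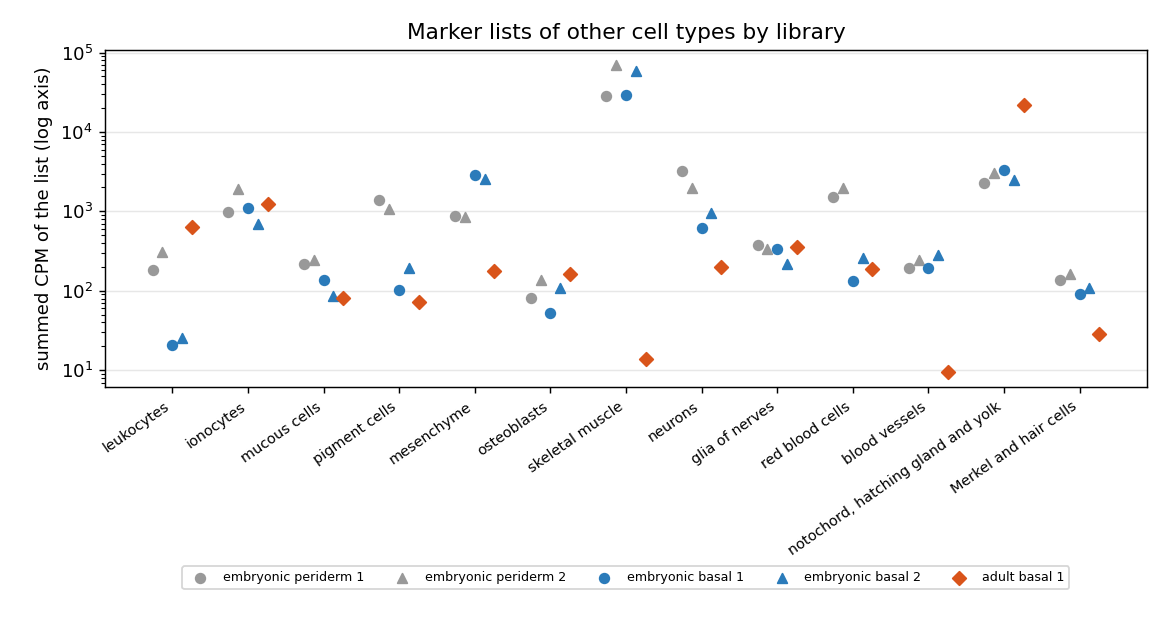
Summed CPM of each marker list on a log axis in the 5 libraries, 1 point per library. Muscle lay at 28946 and 58072 CPM in the embryonic basal libraries and at 13.8 CPM in the adult library, while leukocyte markers lay at 20.8, 25.5 and 630.2 CPM.

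The label of the adult library was set beside the levels of its 4 marker genes. krt5, a type II keratin gene, measured 31012 CPM in the adult library against 1052 and 328 CPM in the embryonic basal libraries and 4442 and 2845 CPM in periderm. All 3 remaining markers, itgb4, krt15 and col17a1b, were likewise above both embryonic basal libraries, where they were present at lower levels. These values do not go against the adult label, but itgb4 chose the cells and is no independent check of it. krt5 was higher at log2 fold change 5.49, SE 0.92, adjusted p = 0.00602, a call lost when the periderm libraries were left out of the fit (adjusted p = 0.0653). In the embryonic libraries krt5 did not set basal cells apart, since both periderm values exceeded both basal values.

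krt15 (keratin 15) measured 1805 CPM against 11 and 5.83 CPM (log2 fold change 7.75, SE 0.64, adjusted p = 0.000715), and col17a1b (collagen XVII) 3657 CPM against 3.40 and 7.03 CPM (log2 fold change 9.44, SE 0.69, adjusted p = 0.000586). In periderm, krt15 measured 3.10 and 1.47 CPM, below both embryonic basal values, and col17a1b 2.37 and 3.72 CPM, which overlapped with them. itgb4 showed another pattern: its adult level of 3916 CPM stood over 488 and 498 CPM in embryonic basal cells and 9.67 and 41.5 CPM in periderm. The itgb4 call (adjusted p = 0.0245) was lost without embryonic basal replicate 1, with adjusted p = 0.0635.

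Of the 20 tested genes of basal keratinocyte identity 14 were higher in the adult library and none was lower by edgeR, with a median log2 fold change of 2.96. No member was lower at an unadjusted p under 0.05 or by DESeq2, and 1 member was lower when libraries were scaled by totals alone. cd44a, which encodes a hyaluronan receptor, measured 1202 CPM in the adult library and 0 counts in each of the other 4 libraries (at least 2224-fold higher, adjusted p = 0.000873). The basal identity regulator gene tp63 measured 347 CPM against 195 and 219 CPM and did not pass (log2 fold change 0.75, SE 0.57, adjusted p = 0.366); its fitted change turned to -0.06 under library totals. krtt1c19e, a keratin gene of embryonic basal cells, measured 6964 CPM against 2377 and 902 CPM and did not pass either (log2 fold change 2.09, adjusted p = 0.102). Of 16 alternatives 1, DESeq2, called krtt1c19e (adjusted p = 0.0221). Both tp63 and krtt1c19e were highest in the adult library, but by less than the edgeR test could tell from the spread estimated in the fit. That estimate also uses the periderm libraries and other genes, and the embryonic basal values of tp63 themselves lay close together.

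**Figure D3:**
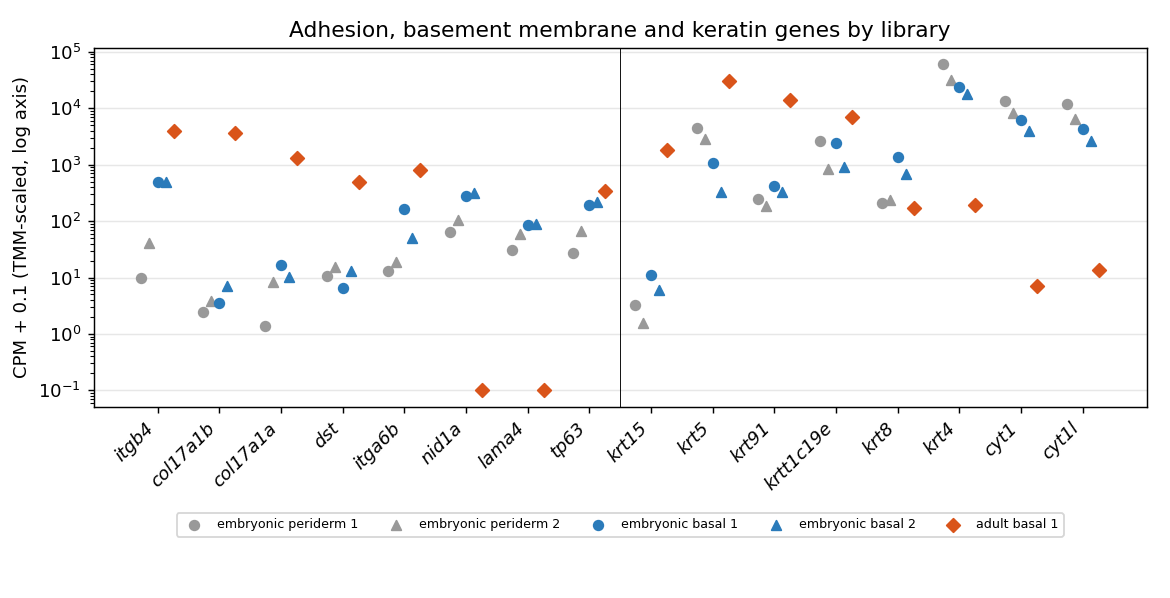
CPM of adhesion genes and keratins on a log axis, 1 point per library, with genes at 0 counts drawn at the foot of the axis. The adult library lies above both embryonic basal libraries for col17a1b, dst and krt15 and below them for krt4, cyt1, nid1a and lama4.

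Within cell-matrix adhesion, the named collagen XVII and plakin genes of hemidesmosomes were higher and several genes of focal contacts lower. In the list of hemidesmosome and integrin genes 9 of 34 were higher and 7 lower, with a median of 0.22 that turned to -0.57 under library totals. Among the higher members, col17a1a, the second collagen XVII gene, measured 1335 CPM against 16.4 and 10.3 CPM, and dst, the plakin that links hemidesmosomes to keratin, 484 CPM against 6.42 and 13.2 CPM (log2 fold change 5.62, adjusted p = 0.00114). itga6b, the partner chain gene of itgb4, chosen after its values were seen, measured 796 CPM against 165 and 50.6 CPM (log2 fold change 2.89, SE 0.66, adjusted p = 0.0185). All of these adult values lay above both embryonic basal libraries.

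The lower members were cd151, itgb1a, itgb1b.2, itga9, fermt2, tln2a and parvab. fermt2, which encodes the kindlin of mesenchymal and other cells, had 1 count in the adult library (0.459 CPM against 83.5 and 93.4 CPM), and its embryonic level was 193-fold (95% counting interval 34.7 to 7632) above that count. tln2a, a talin gene, and itga9, an integrin alpha chain gene, were at 0 in the adult library against 19.1 and 42.5 and 13.4 and 39.07 CPM. cd151, a tetraspanin gene that in mammals belongs to hemidesmosomes, also had no adult count, so the hemidesmosome genes did not all go 1 way. Mesenchyme markers, given above, moved in the same direction as these genes, and their part in the result was not tested.

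Basement membrane genes were lower in the adult library more often than higher. Of 38 tested members 12 were lower and 2 higher, with a median of -2.36 (-1.98 counting genes without reads in a group at their bound). nid1a, which encodes nidogen that links laminin to collagen IV, measured 275 and 311 CPM in embryonic basal cells and 0 in the adult library (at least 213-fold lower, adjusted p = 0.00114). The laminin alpha chain gene lama4 went from 85.8 and 87.4 CPM to 0 (at least 62.9-fold lower, adjusted p = 0.00249), and lama1 from 17 and 39.9 CPM to 0. In periderm lama1 measured 12.95 and 38.5 CPM, which overlapped with its embryonic basal values. nid1a (64.2 and 106 CPM) and lama4 (30.8 and 59 CPM) were also present in periderm, below both embryonic basal values. Muscle and mesenchyme markers, given above, fell beside nid1a, lama4 and lama1, and their part was not tested. A higher member was the laminin gene lamb2l, at 28.5 CPM against 0.567 and 0.514 CPM (log2 fold change 5.66, adjusted p = 0.00319).

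Fibrillar and fin fold matrix genes fell more often than they rose, 19 against 2 of 45 tested, with a median of -1.91 (-1.57 counting genes without reads in a group at their bound). fbn2b, a fibrillin gene, measured 128 and 238 CPM in embryonic basal cells and 0 in the adult (at least 133-fold lower, adjusted p = 0.00523), and the fibulin gene fbln2 84.6 and 88.6 CPM and 0 (at least 62.9-fold lower). tnw (tenascin W) and comp (cartilage oligomeric matrix protein), among the 10 largest decreases of all named genes, were at 0 in the adult library against 1858 and 1175 and 575 and 1049 CPM. The 2 higher members were fn1b, a fibronectin gene (677 CPM against 174 and 118 CPM, log2 fold change 2.21, adjusted p = 0.0256), and col10a1a, the type X collagen of bone-forming cells (63.3 CPM, 705-fold (95% counting interval 127 to 27841) above the single embryonic basal count). The fn1b call was lost under library totals (adjusted p = 0.0647) and against a 2-fold change (adjusted p = 0.0683). Mesenchyme markers fell beside these matrix genes. col10a1a is itself on the osteoblast marker list, so the rise of that list is no separate observation. The part of both cell types in these results was not tested.

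Keratin genes went in both directions, and the most abundant ones differed. Of 23 tested members 8 were higher and 6 lower, with a median of -1.41 (-0.26 counting genes without reads in a group at their bound). cyt1 and cyt1l, type I keratin genes of the embryonic skin, measured 6183 and 3913 and 4307 and 2601 CPM in the embryonic basal libraries and 6.88 and 13.8 CPM in the adult library (log2 fold change -9.51, SE 1.24, adjusted p = 0.00254 for cyt1 and log2 fold change -7.97, SE 1.15, adjusted p = 0.00369 for cyt1l). zgc:110712, named krt99 in RefSeq, had 1 adult count against 58.4 and 52.1 CPM. krt8, a keratin of simple epithelia chosen after its values were seen, measured 171 CPM against 1367 and 681 CPM (log2 fold change -2.58, adjusted p = 0.0248). Leaving out either periderm library ended the krt8 call (adjusted p = 0.0556 and 0.0541) and the krt4 call (adjusted p = 0.115 without periderm replicate 1 and 0.142 without replicate 2), although krt4 kept its direction from 23981 and 18241 CPM to 197 CPM.

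Higher keratins besides krt5 and krt15 included krt91, chosen after its values were seen, at 14159 CPM against 416 and 335 CPM (log2 fold change 5.24, SE 0.63, adjusted p = 0.00204). Per length, krt5 reached 5087 RPKM in the adult library against 247 and 90.9 RPKM in the embryonic basal libraries, and krt91 3664 against 154 and 146 RPKM. krt4 and cyt1, which led the keratins of the embryonic basal libraries at 5402 and 4855 and 2512 and 1878 RPKM, were at 31.0 and 1.95 RPKM in the adult library. Per length, krt5 and krt91 thus lay above krt4 and cyt1 in the adult library and below them in both embryonic basal libraries. In periderm krt4 and cyt1 stood higher still, at 16757 and 8555 and 6709 and 4085 RPKM. The part of periderm RNA in the embryonic basal libraries was not tested. Among list members without an annotated name, zgc:136930 (3348 CPM against 0.756 and 0.514 CPM) and si:dkey-183i3.5 (5787 CPM against 1.51 and 3.08 CPM) were the largest increases.

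Desmosome genes, which join keratinocytes to each other, were mostly higher: 9 of 16 tested against 2 lower, with a median of 2.34. dsg2.1, a desmosomal cadherin gene, measured 2446 CPM against 87.5 and 42.0 CPM (log2 fold change 5.24, SE 0.61, adjusted p = 0.00191), and dsc2l, its desmocollin counterpart, 646 CPM against 39.7 and 26.9 CPM (log2 fold change 4.28, SE 0.46, adjusted p = 0.00148). The plaque protein gene pkp2 measured 86.8 CPM against 6.42 and 2.23 CPM (log2 fold change 4.33, adjusted p = 0.00427), and perp, a desmosomal membrane protein gene chosen after its values were seen, 4263 CPM against 435 and 232 CPM (log2 fold change 3.68, adjusted p = 0.00461). The lower members were pkp3b, with 1 adult count against 77.7 and 62 CPM, and dsg2l, at 0 against 11.7 and 12.9 CPM. Plakophilin genes therefore went in both directions, with pkp2 up and pkp3b down.

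Of the classical cadherin and catenin genes 5 of 15 were lower and 1 higher, with a median of -3.16 (-0.83 counting genes without reads in a group at their bound). cdh2, the neural and mesenchymal N-cadherin, went from 204 and 211 CPM to 0 (at least 151-fold lower, adjusted p = 0.00107), and so did cdh11, a cadherin of mesenchyme, from 35.3 and 27.1 CPM. The higher member was cdh1, the epithelial E-cadherin, at 988 CPM against 329 and 169.6 CPM (log2 fold change 1.99, adjusted p = 0.0314). Its call was lost without periderm replicate 1 (adjusted p = 0.056), periderm replicate 2 (adjusted p = 0.0532) or embryonic basal replicate 2 (adjusted p = 0.0778). Neuronal and mesenchyme markers fell beside cdh2 and cdh11, and their part was not tested.

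Several genes of superficial epidermis were higher in the adult basal library. Of 45 tested genes of periderm and superficial layers 16 were higher and 5 lower, with a median of 1.58 (1.46 counting genes without reads in a group at their bound). icn, which encodes the calcium-binding protein ictacalcin, measured 10735 CPM against 93.0 and 142 CPM (log2 fold change 6.51, SE 0.66, adjusted p = 0.00114), and its relative icn2 1047 CPM against 8.88 and 17 CPM (log2 fold change 6.33, SE 0.65, adjusted p = 0.00115). The adult icn value was above both periderm values (969 and 779.7 CPM), while the adult icn2 value was below them (2772 and 1851 CPM). tgm5l, a transglutaminase gene, measured 126 CPM against 0 in both embryonic basal libraries and 11.7 and 4.96 CPM in periderm (at least 234-fold higher, adjusted p = 0.00141). evplb, a plakin of the cornified envelope, was higher than in embryonic basal cells (45.4 CPM against 2.27 and 2.40 CPM, log2 fold change 4.27, adjusted p = 0.00237) and lower than in periderm (451 and 285 CPM). The periderm keratins cyt1, cyt1l and krt4, on the same list, went down. The sort was on itgb4 reporter signal, and a share of superficial cells in it was not tested.

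Dividing-cell genes were lower in the adult basal library as a group. Of 53 tested mitosis genes 43 were lower and none was higher by edgeR, by DESeq2 or at an unadjusted p under 0.05, with a median of -4.18 (-3.83 counting genes without reads in a group at their bound). Among 51 DNA replication genes 37 were lower and none higher by any of the same measures, with a median of -3.01. mki67, the proliferation antigen Ki-67, measured 5.05 CPM against 163 and 224 CPM (log2 fold change -5.25, SE 0.69, adjusted p = 0.00256), the mitotic kinase cdk1 3.67 CPM against 63.5 and 41.8 CPM (log2 fold change -3.83, SE 0.72, adjusted p = 0.00961) and the replicative helicase gene mcm3 2.29 CPM against 236 and 254 CPM (log2 fold change -6.72, SE 0.77, adjusted p = 0.00183), all 3 chosen after their values were seen. All 3 were nonzero in the adult library and below both embryonic libraries.

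Many members went to no adult count at all. The condensin gene ncapd2 fell from 98.8 and 88.1 CPM to 0 (at least 67.9-fold lower, adjusted p = 0.00234) and the spindle checkpoint kinase ttk from 48.0 and 82.9 CPM to 0 (at least 47.5-fold lower, adjusted p = 0.00393). In replication, esco2, which acetylates cohesin, fell from 64.1 and 61.9 CPM to 0 (at least 45.7-fold lower) and the DNA polymerase delta subunit pold3 from 35 and 43.7 CPM (at least 28.6-fold lower). The sliding clamp pcna was an exception: at 268 CPM against 572 and 580.0 CPM it did not pass (log2 fold change -1.11, adjusted p = 0.17). Transcripts of dividing cells of other tissues in the embryonic sorts, such as muscle and neural cells, cannot be told apart from those of basal cells in these counts.

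**Figure D4:**
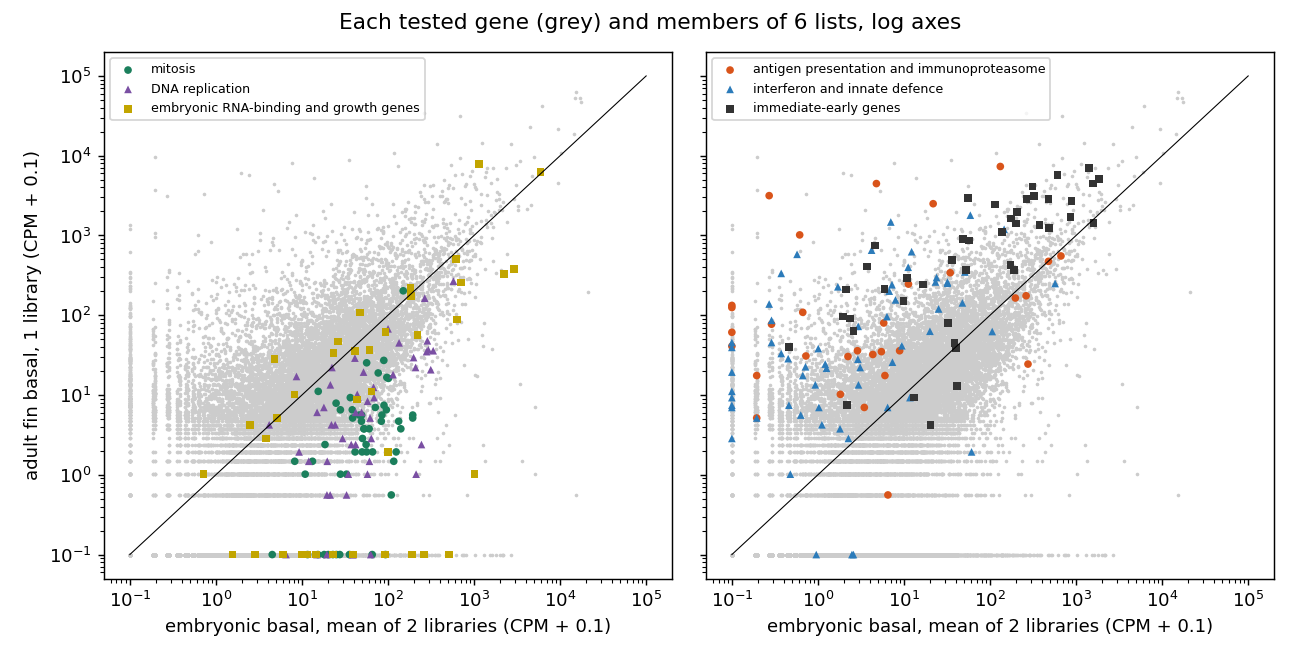
CPM + 0.1 in the adult basal library (vertical, log axis) against the mean of the 2 embryonic basal libraries (horizontal, log axis), 1 grey point per tested gene, with the line of equal level. Members of mitosis, DNA replication and embryonic growth lists (left panel) lie mostly below the line, and those of antigen presentation, interferon and immediate-early lists (right panel) mostly above it.

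RNA-binding and growth genes of embryonic cells were also lower, 17 of 38 tested against 2 higher (1 without periderm replicate 1), with a median of -2.14 (-1.21 counting genes without reads in a group at their bound). igf2bp1, which encodes an oncofetal mRNA-binding protein, measured 342 and 686 CPM in embryonic basal cells and 0 in the adult library (at least 374-fold lower, adjusted p = 0.00184). igf2bp3 of the same family went from 158 and 223 CPM to 0 (at least 139-fold lower), and lin28a, a repressor of let-7 maturation, from 88.1 and 96.6 CPM to 0 (at least 67.1-fold lower, adjusted p = 0.00152). These 3 genes measured 323 and 556, 117 and 166 and 71.0 and 64.6 CPM in periderm, so they were not particular to the embryonic basal sort. tmsb1, a thymosin beta gene for actin binding, went the other way, at 7870.0 CPM against 1473 and 817 CPM (log2 fold change 2.78, adjusted p = 0.0151). That call was lost without periderm replicate 1 (adjusted p = 0.0689) or 2 (adjusted p = 0.0653).

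Genes of growth arrest and p53 response went in both directions. Of 44 tested members 10 were higher and 4 lower, with a median of 1.1. The cell cycle inhibitor gene cdkn1a (p21) measured 379 CPM against 41.8 and 26.6 CPM (log2 fold change 3.47, SE 0.47, adjusted p = 0.00296), and the antiproliferative gene btg1 3142 CPM against 339 and 142 CPM (log2 fold change 3.71, SE 0.62, adjusted p = 0.00604). Another inhibitor of the same class, cdkn1ca (p57), fell from 51.6 and 71.8 CPM to 0 (at least 44.8-fold lower, adjusted p = 0.00239), and the retinoblastoma gene rb1 measured 15.15 CPM against 99.2 and 76.8 CPM (log2 fold change -2.54, adjusted p = 0.0208).

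Antigen presentation genes were among the most frequent increases. Of 31 tested members 20 were higher and 1 lower, with a median of 3.82. b2m, the beta-2-microglobulin light chain of MHC class I, measured 4473 CPM against 4.91 and 4.46 CPM (log2 fold change 9.89, SE 0.65, adjusted p = 0.000586), and mhc1zba, a class I heavy chain gene, 7324 CPM against 182.7 and 80.5 CPM (log2 fold change 5.80, SE 0.73, adjusted p = 0.00233), both chosen after their values were seen. The immunoproteasome subunit psmb8a, which cuts peptides for loading, measured 133 CPM against 0 in all 4 embryonic libraries (at least 245-fold higher, adjusted p = 0.00167). cd74a, the invariant chain of MHC class II, measured 3157 CPM against 0 and 0.343 CPM, a ratio of 17566-fold (95% counting interval 4863 to 145046). The lower member was calr, the chaperone calreticulin, at 24.3 CPM against 287 and 265 CPM (log2 fold change -3.50, adjusted p = 0.00535).

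Interferon and innate defence genes followed, with 39 of 62 tested members higher and 1 lower, at a median of 4.23 (3.86 counting genes without reads in a group at their bound). dhx58, an RNA sensor of the RIG-I family, measured 45.4 CPM against 0 in both embryonic basal libraries (at least 84.1-fold higher, adjusted p = 0.00217), and the interferon signal transducer stat1b 39.5 CPM against 0 (at least 73.0-fold higher, adjusted p = 0.00556), a call that DESeq2 did not make (adjusted p = 0.162). lygl1, a lysozyme gene of the g type, measured 335 CPM against 0.378 and 0.171 CPM. The single lower member, the complement gene c6, had uneven embryonic values (1.84 CPM against 108 and 13.4 CPM) and kept its call in 9 of 16 alternatives; it was lost without either periderm library (adjusted p = 0.0594 and 0.0593) or embryonic basal replicate 1 (adjusted p = 0.0978).

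Leukocyte markers moved in the same direction. Their whole list summed to 630.2 CPM in the adult library, where b2m measured 4473 CPM and cd74a 3157 CPM. In the periderm libraries the leukocyte markers summed to 183.2 and 304 CPM with b2m at 3.47 and 2.14 CPM and cd74a at 0.912 and 0 CPM. These values do not give the b2m or cd74a level of a leukocyte, in the adult or the embryo, so they cannot decide its share. The part of leukocytes in the antigen presentation and interferon results was not tested.

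Immediate-early genes, a group known to respond to cell dissociation, were often higher: 26 of 43 tested, with a median of 3.2. None was lower by edgeR or by DESeq2, and 2 were before adjustment, at p under 0.05. fosb, an AP-1 subunit, measured 2966 CPM against 77.8 and 32 CPM (log2 fold change 5.76, SE 0.75, adjusted p = 0.00244), and the early growth response gene egr1 899 CPM against 41.4 and 56.0 CPM (log2 fold change 4.2, SE 0.46, adjusted p = 0.00152), both chosen after their values were seen. dusp2, a phosphatase of MAP kinases, measured 750.5 CPM against 3.40 and 5.65 CPM (log2 fold change 7.36, SE 0.68, adjusted p = 0.00102), and klf4, a transcription factor that is also an epidermal differentiation regulator, 408 CPM against 4.72 and 2.57 CPM (log2 fold change 6.81, SE 0.66, adjusted p = 0.0011). The summed level of the list was 18289.8 and 7142 CPM in the embryonic basal libraries and 61375 CPM in the adult library, so the embryonic basal replicates themselves differed.

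Heat shock genes varied more between the embryonic replicates. Their sum was 141664 and 37259.7 CPM in the embryonic basal libraries and 277342 CPM in the adult library, with 7 of 40 tested members higher and 3 lower. As shares of gene counts they took 13.6% and 4.43% in the embryonic basal libraries and 17.2% in the adult library. The higher count moved to 3 without periderm replicate 1 and to 15 without embryonic basal replicate 1. hsph1, a chaperone of the Hsp110 class, measured 2363 CPM against 318 and 98.7 CPM (log2 fold change 3.5, SE 0.88, adjusted p = 0.0258), while hsp70.1, chosen after its values were seen, measured 52890.2 CPM against 27013 and 6797 CPM and did not pass (log2 fold change 1.65, adjusted p = 0.283); reads of the almost identical hsp70 copies cannot be assigned to 1 of them with certainty. The small heat shock genes hspb8 and hspb9 went down, from 131 and 39.2 and 80.3 and 45.8 CPM to 0.459 and 0.918 CPM. Stress genes thus stood at high levels in the adult library and in embryonic basal replicate 1 in particular. With heat shock and immediate-early genes left out of the fit, 4101 genes were called, and 1 of 251 named calls was lost. Counts of all other genes stayed the same in that fit, so it does not measure a stress response in them.

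Hox genes, which record position along the body and the appendage axis, differed in direction by paralogue number. Of 49 tested Hox genes 4 were higher and 18 lower, with a median of -7.01 (-1.72 counting genes without reads in a group at their bound); the higher count was 8 without embryonic basal replicate 2. As shares, 8.16% of tested Hox genes were higher and 36.7% lower, against 11.6% and 11.4% over all tested genes. Paralogues 1 to 4 summed to 343.5 and 383.2 CPM in the embryonic basal libraries and 20.7 CPM in the adult library, with 11 of 14 lower. Paralogues 5 to 8 summed to 219.7 and 241.4 CPM against 8.72 CPM, with 6 of 12 lower. Paralogues 9 and 10 did not separate, at 50.4 and 149.9 CPM against 85.4 CPM, with 1 of 9 higher and 1 lower. Paralogues 11 to 13 ran the other way, at 4.53 and 44.9 CPM against 553.1 CPM, with 3 of 14 higher. Periderm sums were 180.4 and 206.7 CPM for paralogues 1 to 4 and 96.9 and 128.6 CPM for 5 to 8, below both embryonic basal sums. For paralogues 9 and 10 they were 193.2 and 171.3 CPM and for 11 to 13 91.4 and 85.7 CPM, above both embryonic basal sums.

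hoxa13b measured 340.1 CPM against 1.13 and 3.60 CPM (log2 fold change 7.14, SE 0.69, adjusted p = 0.00107) and made up most of that adult sum. hoxa13a measured 84.5 CPM against 0.378 and 0.514 CPM (log2 fold change 7.49, SE 0.63, adjusted p = 0.000586), and hoxc12a 65.6 CPM against 0 and 3.43 CPM (log2 fold change 5.2, SE 0.98, adjusted p = 0.00965). hoxd13a and hoxb13a were at 0 in the adult library, so the high distal Hox levels came from the A and C clusters. hoxb3a and hoxb8a, of the anterior and middle paralogue groups, fell from 105 and 106 and 79.5 and 78.1 CPM to 0 (at least 76.7-fold lower and at least 57.3-fold lower, adjusted p = 0.00191 and 0.00191). The embryonic libraries came from embryos whose body sites the labels do not name, so body site and age cannot be told apart in these Hox values. Muscle, mesenchyme and neuronal markers, given above, fell beside the lower Hox genes, and their part was not tested.

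**Figure D5:**
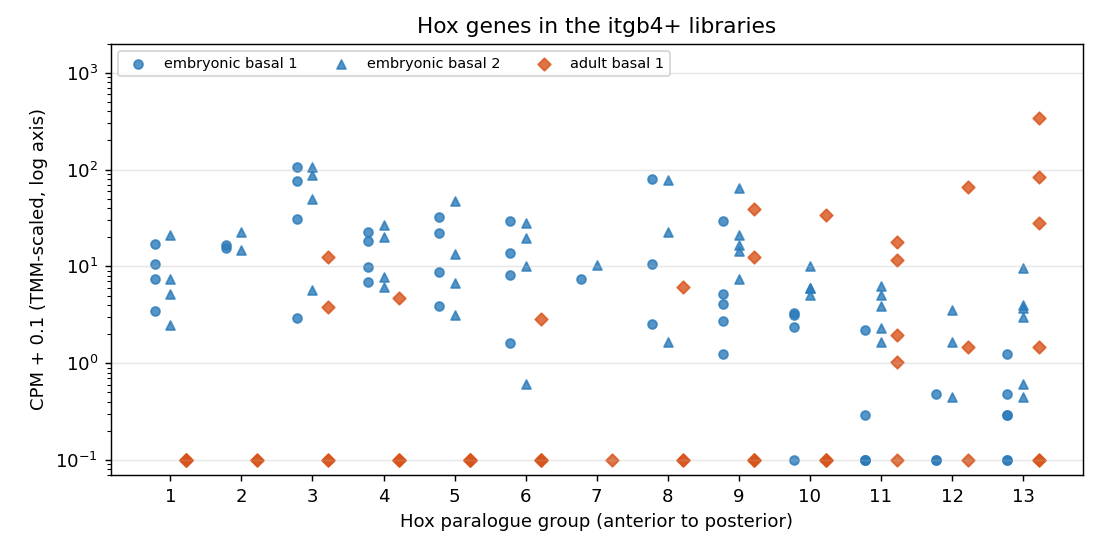
CPM of each tested Hox gene by paralogue number, with the adult library and both embryonic basal libraries as separate points on a log axis. Adult points are low up to paralogue 8, and the highest adult values are those of hoxa13b, hoxa13a and hoxc12a.

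Factors of fins and appendages went in both directions, 8 of 43 higher and 9 lower, with a median of -0.32 (-0.20 counting genes without reads in a group at their bound). The zinc finger factors sp9 and sp8a of the apical epidermis measured 308 CPM against 2.27 and 9.94 CPM (log2 fold change 5.64, SE 0.71, adjusted p = 0.00234) and 301 CPM against 38.2 and 27.4 CPM (log2 fold change 3.2, SE 0.44, adjusted p = 0.0032). The homeobox gene msx2b measured 142 CPM against 19.1 and 6.85 CPM (log2 fold change 3.46, adjusted p = 0.00717), and fgf24, a fin bud growth factor gene, 71.1 CPM against 4.91 and 13.9 CPM (log2 fold change 2.91, adjusted p = 0.0157). Genes that fell to 0 were the Hox cofactor meis3 (145 and 127 CPM; at least 98.9-fold lower), meis2b (129 and 79.7 CPM; at least 75.9-fold lower), the pectoral fin and heart factor hand2 (73.1 and 42.3 CPM; at least 41.9-fold lower) and the engrailed gene en1a (41.8 and 39.2 CPM; at least 29.4-fold lower). The 4 higher genes lay above both embryonic basal libraries, and the 4 lower ones had no adult count.

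Among epidermal transcription factors 22 of 70 tested were higher and 7 lower, with a median of 0.68 that turned to -0.12 under library totals. elf3, an Ets factor of epithelial differentiation, measured 1245 CPM against 5.48 and 7.71 CPM (log2 fold change 7.55, SE 0.66, adjusted p = 0.000873), and klf5a, a Krüppel-like factor of proliferating epithelia, 202 CPM against 1.89 and 1.37 CPM (log2 fold change 6.94, SE 0.54, adjusted p = 0.000586). foxn1, the factor whose loss in mice gives the nude phenotype, measured 42.7 CPM against 0 in both embryonic basal libraries (at least 79.0-fold higher, adjusted p = 0.00235). foxi1, which specifies otic precursors, fell from 83.1 and 24.3 CPM to 0 (at least 39.0-fold lower, adjusted p = 0.0125), and gata2a, an early non-neural ectoderm and blood factor, from 32.9 and 34.1 CPM to 0 (at least 24.3-fold lower).

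Wnt pathway genes numbered 14 higher and 10 lower of 74 tested (5 lower without embryonic basal replicate 1), with a median of -0.72 (-0.15 counting genes without reads in a group at their bound) whose sign turned without embryonic basal replicate 2. Of the ligands, wnt5a measured 78.9 CPM against 1.70 and 0.685 CPM (log2 fold change 6.04, SE 0.79, adjusted p = 0.00239) and wnt3a 34.9 CPM against 1.51 and 2.74 CPM (log2 fold change 4.01, SE 0.72, adjusted p = 0.00719). The receptor genes lgr6, which marks epidermal stem cells in mice, and fzd10, chosen after its values were seen, measured 73.4 CPM against 4.35 and 2.40 CPM (log2 fold change 4.44, adjusted p = 0.00352) and 576 CPM against 36.3 and 44.2 CPM (log2 fold change 3.84, adjusted p = 0.00184). The secreted Wnt inhibitor genes sfrp5 and sfrp2 fell from 107 and 63.6 and 13.8 and 12.5 CPM to 0 (at least 61.8-fold lower and at least 9.55-fold lower), as did the feedback inhibitor nkd1 from 53.7 and 72.7 CPM (at least 45.9-fold lower, adjusted p = 0.00342). A ligand gene, wnt16, was lower too, from 14.5 and 7.54 CPM to 0, but this call was lost without embryonic basal replicate 1 (adjusted p = 0.116).

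In the Notch pathway 5 of 46 were higher (10.9%) and 10 lower (21.7%), against 11.6% and 11.4% over all tested genes. The median was -0.17 (0.00 counting genes without reads in a group at their bound), and its sign turned under RLE scaling. The Jagged ligand genes jag2a and jag1b measured 127 CPM against 2.08 and 7.54 CPM (log2 fold change 4.70, SE 0.90, adjusted p = 0.0103) and 380.1 CPM against 52.0 and 44.9 CPM (log2 fold change 2.97, SE 0.45, adjusted p = 0.00426), and jag2b 65.2 CPM against 8.12 and 8.91 CPM (log2 fold change 2.93, adjusted p = 0.00718). The Delta ligand genes dla and dlb, active in neurogenesis, fell from 33.1 and 41.0 and 32.3 and 30.7 CPM to 0 (at least 26.9-fold lower and at least 22.9-fold lower), and the target gene her4.4 from 37.4 and 78.8 CPM (at least 42.2-fold lower, adjusted p = 0.00713). Neuronal markers fell beside dla, dlb and her4.4, and their part was not tested.

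Of 67 BMP and TGF-beta genes 20 were higher and 11 lower, with a median of 0.31 that turned to -0.47 under library totals. The ligand gene inhbaa (activin A) measured 165 CPM against 12.3 and 5.31 CPM (log2 fold change 4.23, SE 0.58, adjusted p = 0.00311) and ltbp3, which holds latent TGF-beta in the matrix, 161 CPM against 3.78 and 3.94 CPM (log2 fold change 5.37, SE 0.51, adjusted p = 0.00107). The ligand gene bmp5 fell from 152 and 83.3 CPM to 0 (at least 85.3-fold lower, adjusted p = 0.00348) and the BMP antagonist genes grem1b and grem2b from 56.5 and 43.5 and 13.2 and 15.8 CPM to 0 (at least 36.3-fold lower and at least 10.5-fold lower). tgfbi, a matrix protein induced by TGF-beta, measured 80.3 CPM against 1468 and 1123 CPM (log2 fold change -4.01, SE 0.64, adjusted p = 0.00517).

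In the Fgf and EGF list 12 of 50 were higher and 4 lower, with a median of 0.53 that turned to -0.24 under library totals. The EGF family ligand gene epgn (epigen) measured 2045 CPM against 26.3 and 8.23 CPM (log2 fold change 6.89, SE 0.75, adjusted p = 0.00147) and nrg1 (neuregulin) 91.8 CPM against 4.53 and 5.48 CPM (log2 fold change 4.19, SE 0.51, adjusted p = 0.0021). The receptor genes fgfr4 and fgfrl1a fell from 163 and 103 and 96.6 and 73.3 CPM to 0 (at least 96.5-fold lower and at least 61.7-fold lower, adjusted p = 0.00191 and 0.00184). Of 18 Hedgehog genes 5 were lower and none higher by edgeR (0 by DESeq2, and 1 before adjustment, at p under 0.05), with a median of -1.59 (-1.39 counting genes without reads in a group at their bound). Among them were smo, the signal transducer, at 2.75 CPM against 33.1 and 50.2 CPM (log2 fold change -3.91, SE 0.75, adjusted p = 0.01), and hhip, a ligand-binding inhibitor, with 2 adult counts against 93.0 and 72.8 CPM.

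Chemokine genes were 3 of the 10 largest increases among named genes, given below. Of 51 tested genes for signals to other cells 18 were higher and 6 lower, with a median of 0.39 that turned to -0.37 under library totals. ccl27b, a relative of the skin chemokine CCL27 of mammals, measured 3695 CPM against 0.189 and 0 CPM, a ratio of 41123-fold (95% counting interval 7381 to 1624270.0), and ccl25b 1475 CPM against 5.29 and 8.57 CPM (log2 fold change 7.72, SE 0.57, adjusted p = 0.000586). cxcl8a, a neutrophil attractant gene, measured 655 CPM against 7.18 and 1.03 CPM (log2 fold change 7.33, SE 0.94, adjusted p = 0.0024). The lower members included cxcl12b, a guidance signal for migrating cells (105 and 83.5 CPM to 0; at least 68.6-fold lower), the axon guidance gene slit3 (61.4 and 78.7 CPM to 0; at least 50.9-fold lower) and csf1a, a growth factor for macrophages and pigment cells (49.7 and 25.5 CPM to 0; at least 27.3-fold lower).

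The retinoid pathway had 5 of 32 higher and 9 lower, with a median of -1.18 (-0.81 counting genes without reads in a group at their bound). cyp26c1, which breaks down retinoic acid, measured 458 CPM against 13 and 13.2 CPM (log2 fold change 5.12, SE 0.66, adjusted p = 0.00239), and the retinol carrier gene rbp4 2629 CPM against 424 and 163 CPM (log2 fold change 3.16, SE 0.61, adjusted p = 0.0101). aldh1a2, which makes retinoic acid, fell from 149.6 and 56.4 CPM to 0 (at least 74.8-fold lower, adjusted p = 0.00404), the retinol uptake receptor gene stra6 from 42.7 and 30.33 CPM to 0 (at least 26.5-fold lower) and the binding protein gene rbp5 from 323 and 251 CPM to 0 (at least 208-fold lower). As for every called gene, none of these had an adult value between the embryonic basal values.

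Of 40 glycolysis genes 10 were higher (5 without embryonic basal replicate 1) and 4 lower, with a median of 0.52 that turned to -0.28 under library totals. The glucose transporter gene slc2a1b measured 963 CPM against 18.3 and 11.8 CPM (log2 fold change 5.997, SE 0.77, adjusted p = 0.00238) and pkma, a pyruvate kinase gene, 609 CPM against 31.9 and 27.1 CPM (log2 fold change 4.37, SE 0.44, adjusted p = 0.00114). aldoab and pgam2, enzymes of muscle glycolysis, fell from 961 and 1664 and 80.1 and 117 CPM to 0 (at least 953-fold lower and at least 71.4-fold lower). The remaining lower members were gapdh and gpib, each called in all 16 alternatives. gapdhs, chosen after its values were seen, was higher and kept its call in 12 of 16 alternatives. Muscle markers fell beside the 4 lower genes, and their part was not tested. In lipid synthesis 15 of 50 were higher and 2 lower (1 without embryonic basal replicate 1), with a median of 0.72 that turned to -0.08 under library totals. The fatty acid elongase gene elovl7b measured 1033 CPM against 53.5 and 3.43 CPM (log2 fold change 5.19, SE 1.11, adjusted p = 0.0151), and fdft1, squalene synthase, 56.9 CPM against 0.945 and 2.23 CPM (log2 fold change 5.13, adjusted p = 0.00553).

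Matrix proteases and inhibitors had 8 of 35 higher and 5 lower, with a median of -0.52. mmp13a, a collagenase gene, measured 38.1 CPM against 1.70 and 1.03 CPM (log2 fold change 4.79, SE 0.69, adjusted p = 0.00356), and the metalloprotease inhibitor gene timp4.3 134 CPM against 1.13 and 1.2 CPM (log2 fold change 6.81, SE 0.84, adjusted p = 0.00191). plaub, a urokinase gene, measured 94.6 CPM against 0 in both embryonic basal libraries (at least 175-fold higher, adjusted p = 0.00144). mmp15b, a membrane-type protease, fell from 29.3 and 27.8 CPM to 0 (at least 20.7-fold lower, adjusted p = 0.017), and the membrane-bound inhibitor gene reck had 1 adult count against 74.3 and 82.4 CPM.

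The 10 largest increases among named genes with at least 20 CPM in the adult library were cd44a, ccl27b, cd74a, ccl19a.2, tnfrsf18, aste1, ccl19b, crispld2, psmb8a and fabp1b.2. ccl19a.2 and ccl19b, chemokine genes, measured 232 and 213 CPM against 0 in each embryonic library (at least 429-fold higher and at least 395-fold higher, adjusted p = 0.00114 and 0.00114), and the TNF receptor family gene tnfrsf18 219 CPM against 0 (at least 406-fold higher). aste1 and crispld2 had 1 embryonic basal count each and measured 1072 and 958 CPM in the adult library. Of the 10 largest decreases, 7 were genes of contractile muscle or muscle metabolism: actc1a, tpma, mylpfa, myl1, acta1b, mylz3 and aldoab. tnw, comp and aep1, an aerolysin-like protein gene, were the other 3, the last at 1425 and 628 CPM against 0 in the adult library (at least 745-fold lower, adjusted p = 0.00216).

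Ranked by level per length, the 20 most abundant genes of the adult library and of the embryonic basal libraries shared 10. Of the adult top 20, 7 were called higher and none lower, and of the embryonic top 20, 3 were lower and none higher. Each set was chosen by its level in that same group, which favours these directions, so the counts only describe the sets. ptgdsb.1, a prostaglandin D synthase gene, reached 13417 RPKM in the adult library against 239 and 65.0 RPKM in the embryonic basal libraries (log2 fold change 7.03, SE 1.04, adjusted p = 0.00397), and icn 10047 against 125 and 224 RPKM. A prostaglandin synthesis gene upstream of it, ptgs2a (cyclooxygenase 2), measured 9294 CPM against 1032 and 338 CPM (log2 fold change 3.76, SE 0.74, adjusted p = 0.0109), a call lost when the periderm libraries were left out of the fit (adjusted p = 0.056). The arginase gene arg2 measured 5220.2 CPM against 25.3 and 2.40 CPM (log2 fold change 8.56, SE 1.16, adjusted p = 0.00296), and the purine phosphorylase gene pnp5a 8748 CPM against 29.7 and 39.9 CPM (log2 fold change 7.97, SE 0.66, adjusted p = 0.000705). ptgdsb.1, ptgs2a, arg2 and pnp5a were chosen after their values were seen. All 4 lay above both embryonic basal and both periderm libraries.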

How the data were processed

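RNA from fluorescence-sorted cells was sequenced in 5 libraries, 1 of adult fin basal cells, 2 of embryonic basal precursors and 2 of embryonic periderm. The labels' protocols name a SONY SH800S sorter, collection in lysis buffer, the RNeasy Plus Micro Kit for RNA and an MGIEasy WES rapid kit for the libraries. The authors deposited whole-number read counts per transcript row, without normalization. The submitters' processing notes list the build GRCz11, featureCounts 2.0.3 and HISAT2 2.2.1. Levels per length are the RPKM values deposited by the authors, that is, counts per row length and library total according to the file headers. TPM values, also deposited, were left aside. The sources used here give neither strand use nor how reads with several alignments were counted, so antisense partners and near-identical copies cannot be told apart.

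The table held 75805 rows for 30838 gene symbols. Isoforms share reads, so the row with the highest mean count represented each gene. Of 57 symbols turned into dates by a spreadsheet, 46 were matched by accession and the other rows dropped. RefSeq names (assembly GRCz12tu) were used for names alone, and no coordinates or sequences are printed. Row counts summed to between 5580007 in the adult library and 12975986 in periderm replicate 2, and floors and intervals cover counting error only.

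All 5 libraries in 3 groups were fitted with edgeR 4.0.16 (R 4.3.3): filterByExpr by group, TMM, glmQLFit and glmQLFTest, with Benjamini-Hochberg adjustment and 2 residual degrees of freedom. The TMM factor of the adult library was 0.620, against 0.960 to 1.19, and its 10 most abundant genes took 23.9% of counts. A standard error is the absolute log2 fold change over the square root of F. Where a group had no read, the fold printed is a bound set by 3 counts in each library, and with 1 to 3 counts a ratio with a 95% Poisson interval. The code was tested on simulated counts.

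The comparison, 46 gene lists and the rule for named genes were chosen with earlier results of these data known. The rule named the 4 markers, tp63, krtt1c19e and krt4, then the 10 largest called changes per direction that reached at least 20 CPM in 1 group, and up to 4 called members per list and direction with at least 10 CPM. Fewer were named where the text would repeat itself, and other genes are marked as chosen after their values were seen. Alternatives were RLE scaling, library totals, other filters, thinning, left-out embryonic libraries, DESeq2 1.42.0, testing against a 2-fold change, the older quasi-likelihood fit, basal libraries only and summed rows. The adult library could not be left out. An item withheld from the text is not reported here.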

Additional observations from a re-analysis of the deposited data

How the results depend on the processing

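The total of 4182 calls lay between 3256 and 4504 when 1 embryonic library was left out, with 1654 to 2078 higher and 1602 to 2429 lower. Against a 2-fold change 2773 genes were called, 1298 of them lower. Scaling by library totals alone gave 3889 lower calls. Every other alternative kept the total and both directions within 1.5 times of these counts (DESeq2 4559, RLE scaling 4261, transcript rows summed 3905, no filter beyond 1 count 3727). Of 266 named genes that were called, 212 were called under each of the alternatives that could hold them. Most losses came with the test against a 2-fold change (31), without embryonic basal replicate 1 (22) and replicate 2 (16), and with library totals (15). Of the named values that were not called, 2 changed sign, tp63 to -0.0595 under library totals and galnt7 to 0.2133 without embryonic basal replicate 1 (between -0.7724 and 0.2133 without 1 library), and the cause was not tested. The median of 9 gene lists changed sign under library totals and that of 1 list under RLE scaling. With no filter beyond 1 count, the medians of tight junction, glycolysis, BMP and TGF-beta, and Fgf and EGF genes changed sign too. The Notch median did so with DESeq2, and the Wnt and red blood cell medians without embryonic basal replicate 2. A fit without cell type list genes (4043 calls, 0 of 214 named calls lost) or without heat shock and immediate-early genes (4101 calls) was chosen after seeing the data. Both fits kept the counts of all other genes, so they do not measure what those cells or a stress response added there. No paired analysis was possible because the groups compared share fewer than 2 replicate numbers. Depth limits the adult side most: a gene absent there may lie at up to 1.38 CPM, and with 1 adult library no alternative measures the spread between adult samples.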

Other observations

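Ribosomal protein genes differed little between adult and embryonic basal cells. Of 79 tested 1 was higher (2 at an unadjusted p under 0.05), none was lower by edgeR (2 at an unadjusted p under 0.05), and the median log2 fold change was 0.35, or -0.47 under library totals. The higher one was rplp2, an acidic stalk protein gene, at 606 CPM against 173 and 200.1 CPM (log2 fold change 1.70, adjusted p = 0.0293), a call that was lost without periderm replicate 1, without embryonic basal replicate 1 (adjusted p = 0.0994) and under library totals (adjusted p = 0.183). Nuclear-encoded respiratory chain genes had a median of -0.72 (-0.66 counting genes without reads in a group at their bound), with 6 of 85 lower (3 without periderm replicate 1) and 1 higher. ndufb5, a complex I subunit, measured 2.75 CPM against 43.3 and 56.5 CPM (log2 fold change -4.17, SE 0.74, adjusted p = 0.00734) and uqcrc1, a complex III core protein, 33.5 CPM against 165 and 151 CPM (log2 fold change -2.24, SE 0.50, adjusted p = 0.0175). The mitochondrial genome list held only the ribosomal RNA genes mt-rnr2 (63802 CPM against 10134 and 20859 CPM) and mt-rnr1 (1867 CPM against 216 and 342 CPM). Neither passed (adjusted p = 0.217 and 0.06). trnS1, a tRNA gene outside that list chosen after its values were seen, did not pass either (adjusted p = 0.0784). It reached 11199 RPKM in the adult library against 665 and 2168 RPKM in the embryonic basal libraries.

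Tight junction genes seldom differed past the threshold, with 3 of 32 higher (7 without embryonic basal replicate 1) and 1 lower, and a median of 0.47 that turned to -0.05 under library totals. These shares were 9.38% higher and 3.12% lower, against 11.6% and 11.4% over all tested genes. cldna, a claudin gene, measured 497 CPM against 14.2 and 5.48 CPM (log2 fold change 5.66, SE 0.77, adjusted p = 0.0031) and oclnb, an occludin gene, 40.4 CPM against 2.46 and 2.91 CPM (log2 fold change 3.90, SE 0.62, adjusted p = 0.00532), with oclnb at 200.3 and 91.6 CPM in periderm.

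Markers of other skin cells gave few calls. Ionocyte markers summed to 1097 and 704 CPM in the embryonic basal libraries and 1231 CPM in the adult library, with 1 of 17 higher (0 without embryonic basal replicate 1 and under library totals). As shares of gene counts the order was reversed, at 0.105% and 0.0838% against 0.0761% in the adult library, so it depended on the scaling. Of 7 mucous cell and 10 Merkel and hair cell markers none was called by edgeR in either direction; 1 and 2 were lower under library totals. agr2, a mucous cell gene, measured 26.2 CPM against 38.5 and 29.5 CPM, and galnt7, a mucin glycosylation gene, 46.4 CPM against 79.2 and 38.9 CPM. Pigment cell markers summed to 101 and 196 CPM in the embryonic basal libraries and 71.6 CPM in the adult library, with 4 of 22 lower and 1 higher. Among the lower ones were gch2 and pax7b, xanthophore genes, which went from 20.8 and 45.4 and 23.05 and 18.8 CPM to 0. The higher one was kita, which kept its call in 10 of 15 alternatives. Of 24 genes of notochord, hatching gland and yolk 8 were lower and 4 higher (2 without periderm replicate 1). The hatching enzyme gene he1a fell from 54.6 and 91.5 CPM to 0 (at least 53.1-fold lower). The summed level of that list ran the other way, at 3363 and 2512 CPM in the embryonic basal libraries and 21814 CPM in the adult library, and most of the adult sum was apoeb, an apolipoprotein E gene that is not confined to yolk cells (14401 CPM against 1431 and 1037 CPM), whose call was lost without periderm replicate 1 (adjusted p = 0.054). Of 9 nerve glia markers 3 were higher (1 without embryonic basal replicate 1) and 2 lower, the latter foxd3 and pmp22a.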
